A study of Mus musculus with 28 samples.

Results

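Genes of fatty acid, cholesterol and triglyceride synthesis were followed in the gastric corpus epithelium of villin-PPARD mice and their wild-type (WT) littermates, from hand-scraped cells. The 34 genes were chosen by symbol, from a list of synthesis enzymes and their regulators, out of 49492 symbols in the deposited count table. All 34 were found and all 34 passed the filter on low counts, among 15812 genes tested. They were 3 regulators (Srebf1, Srebf2, Insig1), 3 enzymes that build palmitate (Acaca, Acly, Fasn), 7 desaturases and elongases (Scd1, Scd2, Elovl1, Elovl5, Elovl6, Fads1, Fads2), 8 early cholesterol enzymes (Acat2, Hmgcs1, Mvk, Pmvk, Mvd, Idi1, Fdps, Fdft1), 9 late cholesterol enzymes (Sqle, Lss, Cyp51, Tm7sf2, Nsdhl, Hsd17b7, Ebp, Sc5d, Dhcr7), the sterol carrier Stard4 and 3 enzymes of triglyceride synthesis (Gpam, Dgat1, Dgat2).

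The villin-PPARD mice carried a transgene for PPARD, peroxisome proliferator-activated receptor delta, a nuclear receptor activated by fatty acids. Its promoter comes from villin, a gene of the brush border that is mainly used to drive transgenes in intestinal epithelium. Polyadenylated RNA was sequenced from 5 WT and 5 villin-PPARD mice aged 10 weeks, 4 of each aged 25 weeks, and 5 of each aged 55 weeks. The labels give no treatment, strain, sex or number of founder lines, and the p-values below measure the spread between libraries of a group.

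Fatty acids are built in the cytosol from acetyl-CoA, which is carboxylated to malonyl-CoA and joined into palmitate, and desaturases and elongases then turn palmitate into longer and less saturated chains. Cholesterol is built from the same acetyl-CoA through mevalonate, squalene and lanosterol. Both routes are controlled by SREBP transcription factors, which are held in the endoplasmic reticulum by INSIG proteins while sterols are plentiful and are cut free when sterols run low, and NF-Y is a known partner of SREBPs at promoters of these genes. In the stomach, acid-secreting parietal cells and enzyme-secreting chief cells hold much membrane, and mucous cells secrete glycoproteins.

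The 250 bases before the RefSeq start of 4 members are shown because these genes took different courses in the results. Elovl5 and Fads2 passed the test only at 55 weeks, higher in villin-PPARD, Tm7sf2 was lower and then higher, and Hmgcs1 did not pass at any age. Sequences are RefSeq's, of build GRCm38.p6, printed 5′ to 3′ on the strand of the gene, and capitals mark matches on either strand to the NF-Y box CCAAT, the sterol regulatory element TCACNCCAC or the E-box CACGTG.
Elovl5 (chr9:77917115-77917364, plus strand): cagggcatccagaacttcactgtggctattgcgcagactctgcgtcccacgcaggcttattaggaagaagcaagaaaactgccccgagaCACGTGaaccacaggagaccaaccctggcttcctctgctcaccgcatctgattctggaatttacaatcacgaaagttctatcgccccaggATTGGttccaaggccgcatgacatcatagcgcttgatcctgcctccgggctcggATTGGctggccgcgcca
Fads2 (chr19:10101504-10101753, minus strand): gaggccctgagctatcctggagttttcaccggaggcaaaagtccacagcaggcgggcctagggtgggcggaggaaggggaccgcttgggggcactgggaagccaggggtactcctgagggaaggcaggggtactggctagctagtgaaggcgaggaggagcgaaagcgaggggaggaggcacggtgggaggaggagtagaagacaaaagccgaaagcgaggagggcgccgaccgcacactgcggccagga
Tm7sf2 (chr19:6067851-6068100, minus strand): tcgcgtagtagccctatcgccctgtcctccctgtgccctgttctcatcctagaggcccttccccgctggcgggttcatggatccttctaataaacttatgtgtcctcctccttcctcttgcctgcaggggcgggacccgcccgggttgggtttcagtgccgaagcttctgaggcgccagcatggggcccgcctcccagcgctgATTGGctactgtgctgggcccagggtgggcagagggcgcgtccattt
Hmgcs1 (chr13:119690101-119690350, plus strand): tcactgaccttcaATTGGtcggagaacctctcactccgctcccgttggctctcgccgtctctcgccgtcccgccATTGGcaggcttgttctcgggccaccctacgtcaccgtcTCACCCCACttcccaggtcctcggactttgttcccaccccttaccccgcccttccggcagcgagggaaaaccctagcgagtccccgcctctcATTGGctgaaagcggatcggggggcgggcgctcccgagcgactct

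Elovl5 held 2 NF-Y boxes, at 71 and 17 bases before its start, and an E-box at 161 bases. Tm7sf2 held 1 NF-Y box, at 47 bases, and the Fads2 window held no match to any of the searched motifs. By GENCODE gene bounds, all of the Tm7sf2 stretch (gene 6062821 to 6068373) and nearly all of the Fads2 stretch (gene 10062765 to 10101746) lie inside the gene. For these genes the letters lie before the RefSeq start but not before the outermost annotated start. Hmgcs1 held 3 NF-Y boxes and the only sterol regulatory element found, TCACCCCAC, at 137 bases. Promoter windows of 300 bases (250 before and 50 after a start) were given for 25 of the 34 members, in 32 windows. The NF-Y box lay in a window of 21 of those 25 members (22 of 32 windows), against 37.4% of 32851 windows of all genes. The sterol regulatory element was in 1 of 25 members (1 of 32 windows), against 1.24% of all windows. The E-box was in 5 of 25 members (5 of 32 windows), against 7.15% of all windows, and the 5 were Dhcr7, Elovl5, Hsd17b7, Insig1 and Sc5d. The LXR element (AGGTCA, 4 bases of any kind, AGGTCA) and the PPAR element (AGGTCA, 1 base of any kind, AGGTCA) were in none of the members' windows, against 0.0152% and 0.0396% of all windows. None of these motifs overlapped another in the 4 printed stretches, and a match describes letters in the window only.

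Total counts ranged from 10982888 to 30891108 per library. Ppard was at 65.7 to 83.6 CPM (counts scaled to library size with TMM factors) in the WT and 101 to 125 CPM in the villin-PPARD libraries at 10 weeks. The ranges were 60.3 to 80.5 and 79.7 to 99.6 CPM at 25 weeks and 72.2 to 85.6 and 84.7 to 102 CPM at 55 weeks, so the groups overlapped at the later ages. Whether reads of the transgene map to the mouse gene is not stated, so these values do not measure the transgene. Vil1, the villin gene, was at 26.9 to 49 CPM in WT and 110 to 164 CPM in villin-PPARD at 10 weeks. Its ranges were 28.1 to 44.9 and 83.4 to 199 CPM at 25 weeks. At 55 weeks they were 41.3 to 55.6 and 383 to 466 CPM. Columns of the count table name 2 library groups. At 10 weeks both genotypes lie in both library groups, at 25 weeks all libraries lie in the first except WT replicate 3, tagged as a replacement, and at 55 weeks all lie in the second, so age and library group are partly confounded. WT replicates 2 and 3 at 10 weeks were closer to each other than any other pair of a group, yet differed by more than sampling noise (chi-square per degree of freedom 4.26, against 15.1 to 169 for other pairs), and were kept as 2 mice.

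At 10 and 25 weeks the share of these genes that differed between genotypes was near or below that of all genes, and at 55 weeks most of them were higher in villin-PPARD. At 10 weeks 11 of the 34 genes passed the test (32.4%, against 34% of all genes tested), 6 higher in villin-PPARD (background 17.9%) and 5 lower (background 16.2%). Villin-PPARD libraries lay all above or all below the WT libraries for 6 members, against 25.6% of all genes. At 25 weeks 11 members again passed (32.4%, against 39.6%), 6 higher (background 21%) and 5 lower (background 18.6%), and 5 did not overlap between genotypes, against 27.3%. At 55 weeks 26 members passed (76.5%, against 59.3%), 23 higher (background 31.7%) and 3 lower (background 27.6%), and 20 did not overlap, against 43.3%. The median log2 difference over the members was -0.038 at 10 weeks, 0.12 at 25 weeks and 0.54 at 55 weeks, beside -0.034, -0.0063 and 0.026 over all genes. A gene passed when its Benjamini-Hochberg adjusted p from edgeR's quasi-likelihood test, fitted across all genes, was under 0.05. These are bulk samples, so fewer cells of a type and less RNA per cell cannot be told apart.

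At 10 weeks 4 of the 11 calls held in a fit of the first library group alone (3 libraries per genotype) and 2 in a fit of the second (2 per genotype), and Scd2 was the only one of the 11 to change sign in either. Over the alternatives run, 0 of 11 calls at 10 weeks, 5 of 11 at 25 weeks and 24 of 26 at 55 weeks were kept throughout. These counts are not alike between ages, since fits of a single library group were run for the genotype difference at 10 weeks only. The 10-week calls of Acaca, Acly, Dgat2, Dhcr7, Hsd17b7, Srebf1, Stard4 and Tm7sf2 were lost only in those smaller fits.

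**Figure D1:**
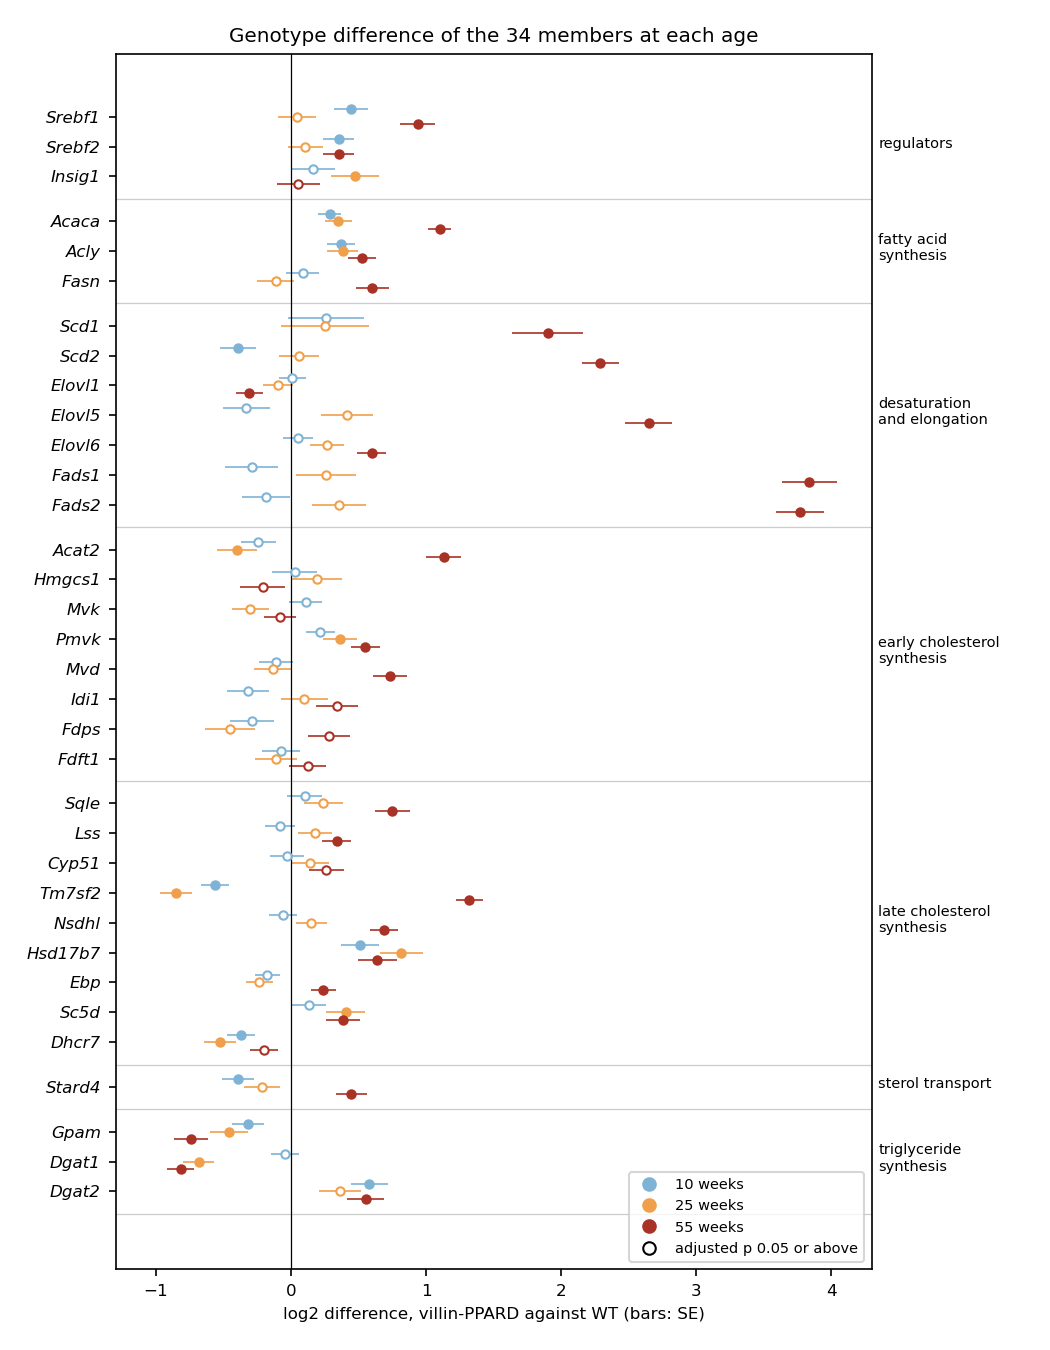
Log2 difference in CPM, villin-PPARD minus WT, for each of the 34 genes at 10, 25 and 55 weeks (horizontal axis, with bars of 1 SE), with genes grouped by role on the vertical axis. The points at 10 and 25 weeks lie near 0 for most genes, while at 55 weeks Fads1 and Fads2 reach 3.84 and 3.77 and Dgat1 and Gpam lie at -0.82 and -0.74.

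Scaling by library size alone, without TMM factors, moved the median of all genes to 0.15 at 25 weeks and 0.43 at 55 weeks, and the share of calls in the higher direction among all genes from 53% to 74.5% and from 53.4% to 78.9%. Under that scaling 12 members were higher and 3 lower at 25 weeks, and 29 were higher and 2 lower at 55 weeks. The median of the members at 55 weeks was then 0.93, again above the median of all genes. The counts of members below are on the TMM scale.

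Markers of several cell types moved with genotype, and their part in the results was not tested. Of all genes, 17.9%, 21% and 31.7% were called higher at 10, 25 and 55 weeks. The shares called lower were 16.2%, 18.6% and 27.6%. Of 10 parietal cell markers, 8 were lower and 1 higher at 10 weeks, and 7 lower and 1 higher at 25 weeks. At 55 weeks 8 were lower and none higher. Their summed level at that age was 7913 to 11760 CPM in WT and 1814 to 3049 CPM in villin-PPARD. Of 8 chief cell markers tested, 5 were lower at 10 weeks, 5 at 25 weeks and all 8 at 55 weeks. Sums at 55 weeks were 23420 to 87270 CPM in WT and 310.2 to 1320 CPM in villin-PPARD. Of 8 pit cell markers, 2 were higher and none lower at 10 weeks, and 1 was higher and 1 lower at 25 weeks. At 55 weeks 7 were lower and 1 higher. Their sum was then 162000 to 215100 CPM in WT and 39820 to 79250 CPM in villin-PPARD. Of 8 markers of mucous neck cells and of spasmolytic polypeptide-expressing metaplasia, 4 were higher at 10 weeks and 5 at 25 weeks, and none lower. At 55 weeks 5 were higher and 2 lower. Their sum was then 4982 to 6976 CPM in WT and 18150 to 26660 CPM in villin-PPARD.

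Proliferation markers were higher for 5 of 8 at 10 weeks and for 8 of 8 at 25 and at 55 weeks, where their sum was 166.5 to 187.8 CPM in WT and 438.2 to 546.2 CPM in villin-PPARD. Myeloid markers were higher for 2, 2 and 7 of 8 at the 3 ages, and their sum at 55 weeks was 70.85 to 78.57 CPM in WT and 125.2 to 254.2 CPM in villin-PPARD. The 4 lymphocyte markers tested, of 8, were all higher at 55 weeks and none passed at the earlier ages, and their list summed to 21.41 to 33.04 CPM in WT and 84.36 to 271.6 CPM in villin-PPARD at 55 weeks. Adipocytes are rich in several of the synthesis enzymes. Of 8 adipocyte markers 2 were tested, Cidec, a lipid droplet protein, and Fabp4, a fatty acid binding protein, and both were higher at 10 and 25 weeks. At 55 weeks Cidec was lower and Fabp4 did not pass. Their list summed to 31.31 to 54.34 CPM in WT and 76.99 to 100.3 CPM in villin-PPARD at 10 weeks, 37.55 to 58.44 CPM in WT and 72.44 to 104.2 CPM in villin-PPARD at 25 weeks and 49.9 to 80.77 CPM in WT and 20.82 to 81.43 CPM in villin-PPARD at 55 weeks. Cfd and Retn, more restricted to adipocytes, had no counts in any library, and Adipoq and Lep reached at most 0.053 and 0.0445 CPM.

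Endocrine cell markers were lower for 3, 5 and 6 of 8 at the 3 ages, and summed to 678.3 to 1332 CPM in WT and 41.54 to 138.5 CPM in villin-PPARD at 55 weeks. Of 6 enterocyte markers tested, 1 was lower at 10 weeks, and 1 was higher and 2 lower at 25 weeks. At 55 weeks 1 was higher and 3 lower. Sums at that age were 923.5 to 1302 CPM in WT and 191.4 to 358.5 CPM in villin-PPARD. All 4 erythroid markers tested were lower at 25 and 55 weeks and 2 at 10 weeks, with sums at 55 weeks of 41.89 to 155.9 CPM in WT and 9.904 to 22.6 CPM in villin-PPARD. Of 7 markers tested of squamous and sebaceous cells, the latter being lipid-making cells, 2 were lower at 10 weeks, none passed at 25 weeks, and at 55 weeks Krt5, Krt14 and Dsg3 were higher and Krt13 and Mogat1 lower. That list summed to 327 to 480.9 CPM in WT and 59.57 to 104.5 CPM in villin-PPARD at 55 weeks, of which Mogat1, also in the glycerolipid list, made up 406 ± 74 CPM in WT and 58.2 ± 23.8 CPM in villin-PPARD (mean ± SD). Smooth muscle markers were lower for 3 of 5 at 55 weeks, fibroblast markers for 1 of 6, and of 5 endothelial markers 2 were higher and 1 lower. At 10 weeks 1 endothelial marker was higher, and at 25 weeks 1 was higher and 1 lower. The share of mitochondrially encoded counts was 4.81 to 11.9% in WT and 1.57 to 4.82% in villin-PPARD at 10 weeks, 5.71 to 14.9% and 4.12 to 6.27% at 25 weeks, and 6.85 to 20.4% and 2.01 to 5.24% at 55 weeks.

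Among the regulators, Srebf1 and Srebf2 were higher in villin-PPARD at 10 and at 55 weeks, and Insig1 passed only the 25-week test. Srebf1 (chromosome 11, 60199089 to 60222581, minus strand, in GENCODE gene bounds on GRCm38, as for all positions given) encodes SREBP-1, which drives genes of fatty acid synthesis. Its libraries at 10 weeks were at 124, 125, 132, 109 and 132 CPM in WT and 184, 160, 153, 181 and 169 CPM in villin-PPARD. The 25-week libraries were at 148, 76.3, 118 and 119 CPM in WT and 121, 126, 111 and 119 CPM in villin-PPARD, and at 55 weeks at 107, 76.1, 109, 133 and 96.2 CPM in WT and 176, 223, 214, 191 and 196 CPM in villin-PPARD. Every villin-PPARD library lay above every WT library at 10 and 55 weeks, while at 25 weeks the villin-PPARD values fell inside the WT range. As a log2 difference this was 0.45 (SE 0.13, adjusted p = 0.007363) at 10 weeks, 0.046 (SE 0.14, adjusted p = 0.8236) at 25 weeks and 0.94 (SE 0.13, adjusted p = 2.74e-07) at 55 weeks, the last a 1.92-fold higher level. Within the first and second library groups the 10-week log2 difference was 0.42 and 0.54, neither past the threshold at the smaller number of libraries.

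Srebf2 (chromosome 15, 82147181 to 82205379, plus strand), which encodes SREBP-2, the main activator of cholesterol synthesis, was higher at 10 and 55 weeks with some overlap. At 10 weeks it was at 397, 338, 342, 397 and 452 CPM in WT and 515, 455, 446, 515 and 532 CPM in villin-PPARD. Levels at 25 weeks were 439, 293, 387 and 340 CPM in WT and 417, 418, 387 and 349 CPM in villin-PPARD, and at 55 weeks 394, 267, 332, 395 and 311 CPM in WT and 372, 484, 452, 421 and 444 CPM in villin-PPARD. The genotypes overlapped at each age, with 1 villin-PPARD library at 10 weeks below the highest WT library and 1 at 55 weeks among the WT values. Log2 differences were 0.355 (SE 0.115, adjusted p = 0.01722) at 10 weeks, 0.11 at 25 weeks and 0.355 (SE 0.115, adjusted p = 0.008941) at 55 weeks. The 10-week call was lost without WT replicate 2, WT replicate 3 or villin-PPARD replicate 4.

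Insig1 (chromosome 5, 28071363 to 28078662, plus strand) encodes the endoplasmic reticulum protein that retains SREBPs and is itself an SREBP target. Its 10-week values were 126, 93.4, 91.7, 152 and 144 CPM in WT and 122, 101, 113, 190 and 155 CPM in villin-PPARD. Libraries of 25-week mice were at 120, 99.3, 115 and 86.1 CPM in WT and 152, 154, 119 and 159 CPM in villin-PPARD, and at 55 weeks at 130, 109, 131, 109 and 98 CPM in WT and 125, 136, 138, 91.7 and 108 CPM in villin-PPARD. At 25 weeks 3 of 4 villin-PPARD libraries exceeded the highest WT library, with a log2 difference of 0.48 (SE 0.18, adjusted p = 0.03475), a call lost when any 1 of 5 libraries was left out. At 10 and 55 weeks the log2 differences were 0.165 and 0.053 and the groups overlapped.

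All 3 enzymes that build palmitate were higher in villin-PPARD at 55 weeks (31.7% of all genes were), and Acaca and Acly at each age. Acaca (chromosome 11, 84129672 to 84401651, plus strand) encodes acetyl-CoA carboxylase, which makes the malonyl-CoA that fatty acid synthase uses. It was at 26.6, 27.9, 28, 25.3 and 25.5 CPM in WT and 33.1, 32.8, 29.7, 32.5 and 34.8 CPM in villin-PPARD at 10 weeks. At 25 weeks it was at 30.6, 22.7, 25.5 and 20.1 CPM in WT and 34.6, 32.4, 28.5 and 30.8 CPM in villin-PPARD, and at 55 weeks 28.3, 23.2, 24, 27.8 and 24.4 CPM in WT and 53.7, 57.3, 54.2, 56.2 and 52.1 CPM in villin-PPARD. The genotypes did not overlap at 10 and 55 weeks, and at 55 weeks the lowest villin-PPARD library was at 52.1 CPM against 28.3 CPM for the highest WT library. This gave a log2 difference of 0.29 (SE 0.088, adjusted p = 0.01251) at 10 weeks, 0.35 (SE 0.099, adjusted p = 0.005995) at 25 weeks and 1.10 (SE 0.088, adjusted p = 9.247e-12) at 55 weeks. The 25-week call was lost when only the 25-week libraries were fitted. Of its 75-base stretches, 26.2% are also present in the annotated gene Gm5182, so its counts are uncertain to that extent.

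Acly (chromosome 11, 100476353 to 100528000, minus strand) encodes ATP citrate lyase, which splits exported citrate into acetyl-CoA. At 10 weeks its values were 97.1, 85.8, 85.5, 97.8 and 108 CPM in WT and 138, 119, 108, 122 and 127 CPM in villin-PPARD. The 25-week libraries were at 95.2, 80.2, 81.3 and 81.8 CPM in WT and 119, 116, 103 and 104 CPM in villin-PPARD, and at 55 weeks 102, 77.2, 80.7, 97.9 and 82.2 CPM in WT and 106, 155, 142, 111 and 120 CPM in villin-PPARD. All villin-PPARD libraries lay above all WT libraries at 25 and 55 weeks, and at 10 weeks the lowest villin-PPARD and the highest WT library met at 108 CPM. The log2 difference was 0.37 (SE 0.10, adjusted p = 0.006417), 0.38 (SE 0.12, adjusted p = 0.009637) and 0.52 (SE 0.10, adjusted p = 7.547e-05) at 10, 25 and 55 weeks.

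Fasn (chromosome 11, 120805846 to 120824547, minus strand), which encodes fatty acid synthase, did not pass at the earlier ages. At 10 weeks it was at 390, 381, 386, 388 and 445 CPM in WT and 455, 385, 378, 438 and 457 CPM in villin-PPARD. Levels at 25 weeks were 423, 322, 365 and 253 CPM in WT and 340, 295, 344 and 282 CPM in villin-PPARD, and at 55 weeks 337, 269, 301, 347 and 328 CPM in WT and 400, 589, 568, 401 and 445 CPM in villin-PPARD. Only at 55 weeks did every villin-PPARD library exceed every WT library, and 2 of them stood apart at 589 and 568 CPM. Log2 differences were 0.087, -0.11 and 0.60 (SE 0.12, adjusted p = 0.0001029), a 1.52-fold higher level at 55 weeks.

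The desaturases and elongases held the 5 largest differences of the 34 genes, all at 55 weeks (Fads1, Fads2, Elovl5, Scd2 and Scd1). At that age 6 of 7 were higher and Elovl1 was lower, beside 31.7% and 27.6% of all genes. At 10 weeks 0 were higher and 1 was lower, beside 17.9% and 16.2% of all genes. At 25 weeks 0 were called by edgeR (2 at an unadjusted p under 0.05), beside 39.6% of all genes. The summed level of the 7 genes was 294.7 to 367.2 CPM in WT and 268.6 to 339.4 CPM in villin-PPARD at 10 weeks, 278 to 340.7 CPM in WT and 271.2 to 340.1 CPM in villin-PPARD at 25 weeks and 270.2 to 298.5 CPM in WT and 796.7 to 927 CPM in villin-PPARD at 55 weeks.

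Fads2 encodes the desaturase that takes the first step from dietary linoleic and linolenic acid toward longer polyunsaturated fatty acids. It was at 3.59, 5.51, 5.51, 5.47 and 5.63 CPM in WT and 4.16, 4.2, 4.28, 4.83 and 5.01 CPM in villin-PPARD at 10 weeks. Libraries of 25-week mice were at 7.28, 5.1, 4.42 and 3.07 CPM in WT and 6.74, 7.59, 5.16 and 5.81 CPM in villin-PPARD, and at 55 weeks at 3.95, 4.29, 4.72, 4.12 and 4.49 CPM in WT and 65.9, 53.9, 38.7, 68.3 and 67.2 CPM in villin-PPARD. The 5 villin-PPARD libraries at 55 weeks were at 38.7 CPM or more, while no other library passed 7.59 CPM. The log2 difference at 55 weeks was 3.77 (SE 0.18, adjusted p = 1.435e-16), a 13.7-fold higher level, beside -0.18 and 0.36 at 10 and 25 weeks, neither past the threshold.

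Fads1 encodes the desaturase that acts after Fads2, in the step that gives arachidonic acid. Its values at 10 weeks were 9.91, 13.3, 11.8, 10.7 and 15.7 CPM in WT and 6.74, 8.27, 11.7, 12.3 and 10.4 CPM in villin-PPARD. At 25 weeks it was at 13.1, 8.13, 12 and 8.09 CPM in WT and 14.9, 15.3, 6.82 and 13 CPM in villin-PPARD, and at 55 weeks 7.86, 11.5, 10.7, 9.05 and 11.6 CPM in WT and 166, 129, 118, 173 and 138 CPM in villin-PPARD. The 5 villin-PPARD libraries at 55 weeks were at 118 CPM or more, while no other library passed 15.7 CPM. As a log2 difference this was -0.29 at 10 weeks, 0.26 at 25 weeks and 3.84 (SE 0.20, adjusted p = 5.911e-15) at 55 weeks, a 14.4-fold higher level. The 2 genes lie near each other on chromosome 19 in opposite orientation, Fads2 at 10062765 to 10101746 on the minus strand and Fads1 at 10182888 to 10196877 on the plus strand.

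Scd2 encodes a stearoyl-CoA desaturase, which puts the double bond into stearate to make oleate. At 10 weeks it was at 94.5, 132, 127, 101 and 104 CPM in WT and 72.1, 67.8, 77.7, 121 and 86.6 CPM in villin-PPARD. The 25-week libraries were at 83.4, 85.9, 90.4 and 75.1 CPM in WT and 84.2, 106, 74.4 and 83.9 CPM in villin-PPARD, and at 55 weeks 97.7, 85.5, 80.2, 87.2 and 75.5 CPM in WT and 434, 500, 429, 338 and 385 CPM in villin-PPARD. It was lower in 4 of 5 villin-PPARD libraries than in any WT library at 10 weeks, overlapped WT at 25 weeks, and at 55 weeks was at 338 CPM or more in all 5 villin-PPARD libraries against at most 97.7 CPM in WT. This gave a log2 difference of -0.39 (SE 0.13, adjusted p = 0.0226) at 10 weeks, 0.057 at 25 weeks and 2.29 (SE 0.14, adjusted p = 2.261e-14) at 55 weeks. At 10 weeks it was -0.67 within the first library group and 0.023 within the second, so the lower level did not hold in both, and the call was also lost without WT replicate 2 or 3 or villin-PPARD replicate 1 or 2.

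Scd1 encodes a close relative of Scd2 with the same activity, and was the least abundant member per kilobase of exon in WT. Its 10-week values were 2.42, 2.76, 2.93, 2.29 and 0.924 CPM in WT and 2.52, 2.28, 3.52, 3.47 and 2.04 CPM in villin-PPARD. Levels at 25 weeks were 2.26, 2.92, 1.77 and 2.59 CPM in WT and 3.35, 3.25, 1.97 and 2.61 CPM in villin-PPARD, and at 55 weeks 3.15, 3.62, 1.6, 3.85 and 1.78 CPM in WT and 9.54, 15.9, 13.7, 6.03 and 8.21 CPM in villin-PPARD. Only at 55 weeks did the groups part, with a log2 difference of 1.90 (SE 0.265, adjusted p = 4.673e-07), a 3.73-fold higher level from a low base. Scd1 and Scd2 share 79 of their 75-base stretches (1.62% of Scd1). Both lie on chromosome 19, Scd2 at 44293674 to 44306864 on the plus strand and Scd1 at 44394455 to 44407879 on the minus strand.

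Elovl5 (chromosome 9, 77917364 to 77984519, plus strand), the elongase of polyunsaturated fatty acids, also passed only at 55 weeks. At 10 weeks it was at 8.57, 13.2, 12.2, 8.96 and 8.4 CPM in WT and 4.29, 8.27, 10.2, 8.6 and 9.36 CPM in villin-PPARD. Libraries of 25-week mice were at 6.67, 10.5, 10.9 and 10.2 CPM in WT and 12.4, 12.3, 10.4 and 16.3 CPM in villin-PPARD, and at 55 weeks at 8.71, 7.39, 9.62, 8.24 and 6.83 CPM in WT and 52.9, 45.8, 48.2, 51.8 and 56.3 CPM in villin-PPARD. The 55-week villin-PPARD values were a tight group of 45.8 to 56.3 CPM, and the log2 difference was 2.65 (SE 0.17, adjusted p = 1.441e-13), a 6.26-fold higher level. The differences at 10 and 25 weeks, -0.33 and 0.415, did not pass. Elovl6, which extends palmitate to stearate, was 1.51-fold higher at 55 weeks with no overlap (log2 difference 0.60). Elovl1, which extends saturated chains toward very long ones, was 1.24-fold lower (log2 difference -0.31, adjusted p = 0.008034) with all villin-PPARD libraries below WT, and under library-size scaling its difference was 0.089.

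**Figure D2:**
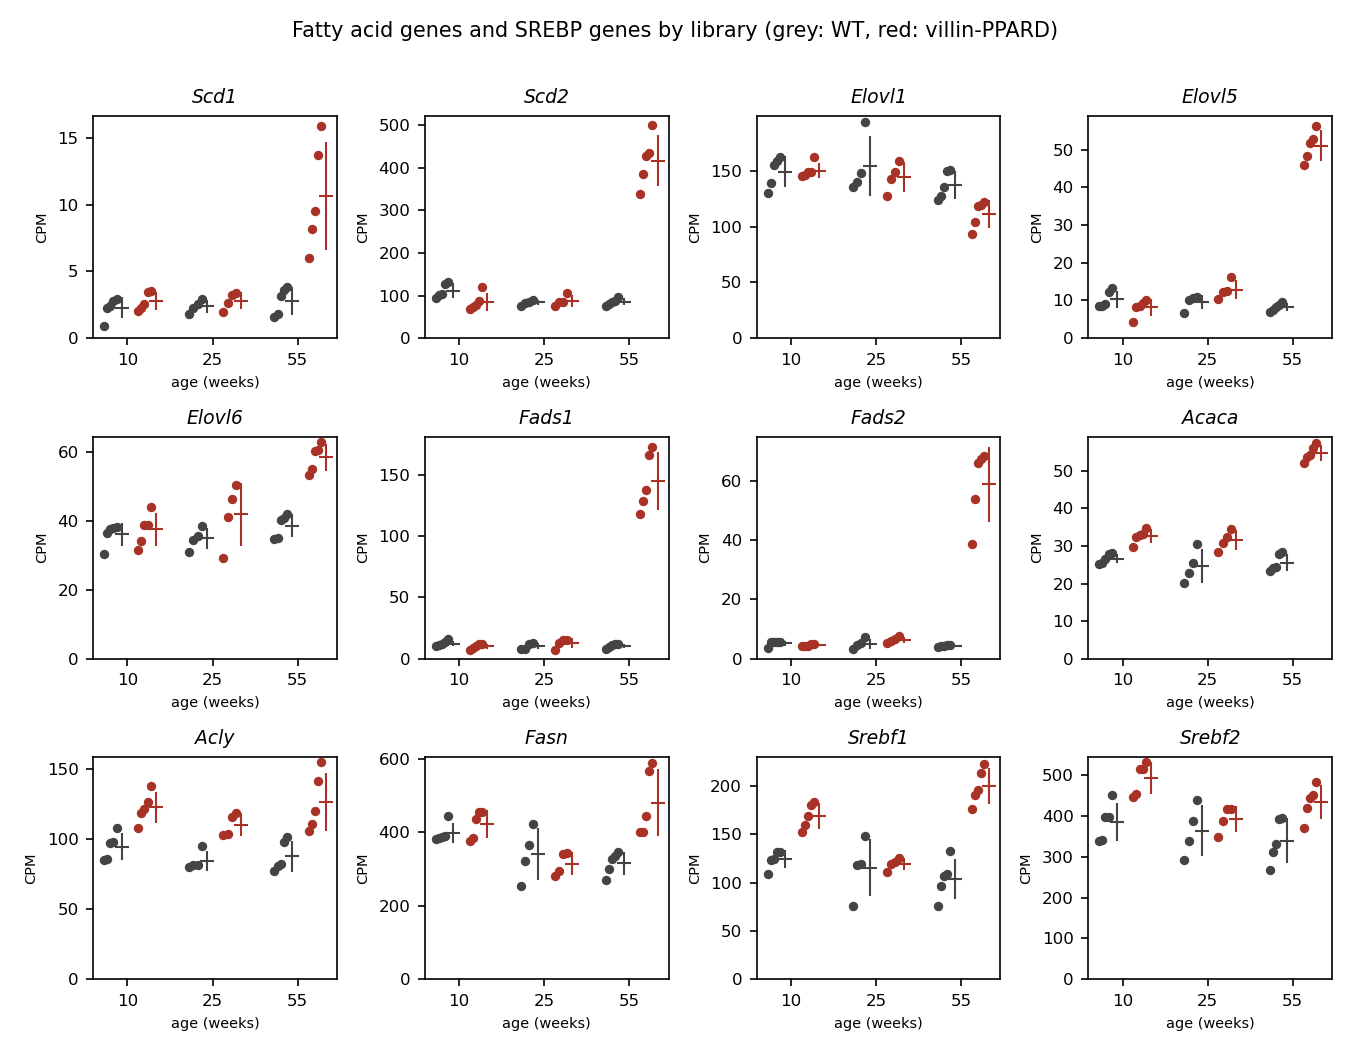
CPM (vertical axis, linear from 0) of Srebf1, Srebf2 and the palmitate, desaturase and elongase genes in each of the 28 libraries, by genotype and age, with the mean ± SD beside each group and points ordered by value within a group. For Fads1 the villin-PPARD libraries at 55 weeks lie at 118 to 173 CPM, while all other libraries lie between 6.74 and 15.7 CPM.

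The early cholesterol genes carry acetyl-CoA to squalene. None of 8 passed at 10 weeks by edgeR (1 at an unadjusted p under 0.05), where 34% of all genes were called. At 25 weeks 1 was higher and 1 lower, where 21% of all genes were higher and 18.6% lower. At 55 weeks 3 were higher and none lower (Acat2, Pmvk and Mvd), where 31.7% of all genes were higher and 27.6% lower. The summed level of the 8 genes at 55 weeks overlapped between genotypes, at 383.4 to 524.2 CPM in WT and 375.3 to 546.8 CPM in villin-PPARD. Hmgcs1 alone made up a large part of this sum, at a mean of 265 of 448.1 CPM in WT and 229 of 455.8 CPM in villin-PPARD.

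Acat2 (chromosome 17, 12942890 to 12960747, minus strand) encodes the cytosolic thiolase that joins 2 acetyl-CoA. It was at 9.65, 6.95, 7.68, 8.96 and 8.57 CPM in WT and 7.06, 6.72, 6.37, 7.81 and 7.37 CPM in villin-PPARD at 10 weeks. At 25 weeks it was at 9.17, 9.38, 8.39 and 7.65 CPM in WT and 5.11, 5.59, 9.43 and 5.81 CPM in villin-PPARD, and at 55 weeks at 6.96, 7.61, 7.04, 7.11 and 7.26 CPM in WT and 16.7, 18.6, 15.7, 14.6 and 13.4 CPM in villin-PPARD. At 25 weeks 3 of 4 villin-PPARD libraries lay below every WT library while replicate 3 lay above them, and at 55 weeks all 5 lay above WT. The log2 difference was -0.24 at 10 weeks, -0.40 (SE 0.15, adjusted p = 0.03279) at 25 weeks and 1.13 (SE 0.13, adjusted p = 1.098e-08) at 55 weeks. The 25-week call was lost in several single-library omissions and under library-size scaling, and 33.9% of the gene's 75-base stretches are shared with Acat3, so reads could be split between them.

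Mvd (chromosome 8, 122433601 to 122443422, minus strand) encodes the decarboxylase that makes isopentenyl diphosphate. Its values at 10 weeks were 15.8, 13.8, 15.8, 17.6 and 20.3 CPM in WT and 15.7, 13.6, 12.3, 18.6 and 16.9 CPM in villin-PPARD. The 25-week libraries were at 19.6, 14.9, 14.1 and 12.4 CPM in WT and 13.2, 12.2, 16.7 and 13.3 CPM in villin-PPARD, and at 55 weeks 15.5, 16.5, 19, 17.7 and 17.8 CPM in WT and 31, 33.8, 28.6, 25.1 and 25.3 CPM in villin-PPARD. The groups overlapped at 10 and 25 weeks and parted at 55 weeks, with log2 differences of -0.11, -0.13 and 0.735 (SE 0.125, adjusted p = 9.356e-06).

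Hmgcs1 (chromosome 13, 119690379 to 119708260, plus strand), whose enzyme makes HMG-CoA from acetoacetyl-CoA and acetyl-CoA on the way to mevalonate, was second to Dgat2 per kilobase of exon in WT. At 10 weeks it was at 355, 242, 242, 371 and 319 CPM in WT and 263, 244, 305, 373 and 374 CPM in villin-PPARD. Levels at 25 weeks were 241, 350, 317 and 204 CPM in WT and 347, 340, 329 and 251 CPM in villin-PPARD, and at 55 weeks 336, 300, 239, 238 and 213 CPM in WT and 206, 287, 256, 173 and 224 CPM in villin-PPARD. The genotypes overlapped at every age, with log2 differences of 0.027, 0.19 and -0.21 (adjusted p = 0.9186, 0.4409 and 0.2886). Pmvk, which phosphorylates mevalonate phosphate, was higher at 25 weeks (0.36, a call lost in several omissions) and at 55 weeks (0.55, no overlap). Mvk, Idi1, Fdps and Fdft1, which encode mevalonate kinase, the isopentenyl diphosphate isomerase, farnesyl diphosphate synthase and squalene synthase, did not pass at any age, with log2 differences at 55 weeks of -0.082, 0.34, 0.28 and 0.12. Fdps shares 26.7% of its exon bases with Gm43738 and Fdft1 shares 18.3% with Ctsb, so their counts may hold or lack reads of those neighbours.

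The late cholesterol genes, from squalene to cholesterol, were higher for 7 of 9 at 55 weeks and lower for none, against 31.7% and 27.6% of all genes. At 10 weeks 1 was higher and 2 were lower, against 17.9% and 16.2% of all genes. At 25 weeks 2 were higher and 2 lower, against 21% and 18.6% of all genes. Sqle (chromosome 15, 59315077 to 59331192, plus strand) encodes squalene epoxidase, an early rate-controlling step of sterol formation. It was at 80.1, 79.6, 76.8, 103 and 101 CPM in WT and 88.4, 68.2, 83.2, 112 and 121 CPM in villin-PPARD at 10 weeks. Libraries of 25-week mice were at 84.3, 77, 73.2 and 68.2 CPM in WT and 95.3, 97.9, 87 and 77 CPM in villin-PPARD, and at 55 weeks at 76.1, 58.6, 81.3, 72.4 and 62 CPM in WT and 103, 135, 120, 102 and 129 CPM in villin-PPARD. All villin-PPARD libraries at 55 weeks lay above WT, and the log2 difference was 0.75 (SE 0.13, adjusted p = 1.261e-05), beside 0.10 and 0.24 earlier.

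Tm7sf2 (chromosome 19, 6062821 to 6068373, minus strand), a sterol reductase that acts on the lanosterol-derived intermediates, changed direction with age. It was at 10.5, 9.7, 10.5, 11.2 and 13.8 CPM in WT and 8.07, 7.98, 7.57, 7.2 and 6.66 CPM in villin-PPARD at 10 weeks. At 25 weeks it was at 12.3, 10.6, 10.6 and 11.1 CPM in WT and 5.83, 6.27, 6.42 and 6.26 CPM in villin-PPARD, and at 55 weeks 9.51, 9.61, 12.6, 12.6 and 9.41 CPM in WT and 28.4, 27.5, 24.9, 25.5 and 27.7 CPM in villin-PPARD. Every villin-PPARD library was below every WT library at 10 and 25 weeks and above every one at 55 weeks. As a log2 difference this was -0.565 (SE 0.10, adjusted p = 0.0001006), -0.85 (SE 0.12, adjusted p = 2.17e-06) and 1.32 (SE 0.099, adjusted p = 2.226e-12) at 10, 25 and 55 weeks. Within the library groups at 10 weeks it was -0.35 and -0.84. Vps51, on the same strand, overlaps 12.1% of its exon bases.

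Nsdhl (chromosome X, 72918557 to 72958514, plus strand) encodes a dehydrogenase that helps remove the methyl groups of lanosterol. Its values at 10 weeks were 27.8, 31.4, 28.9, 29.6 and 34.9 CPM in WT and 28.4, 27.8, 24.8, 31.1 and 34.1 CPM in villin-PPARD. The 25-week libraries were at 30.4, 34.6, 27.1 and 26.7 CPM in WT and 37.7, 37.4, 27.9 and 28.3 CPM in villin-PPARD, and at 55 weeks 31.8, 29.2, 29.7, 26.7 and 24.5 CPM in WT and 42.7, 50.3, 43.8, 42.8 and 49.5 CPM in villin-PPARD. The 55-week groups did not overlap, with a log2 difference of 0.69 (SE 0.10, adjusted p = 1.231e-06), and at 10 and 25 weeks the differences were -0.06 and 0.15.

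Of the other late genes, Hsd17b7, which encodes the ketoreductase of the same demethylation, was higher at all 3 ages, with log2 differences of 0.51, 0.82 and 0.64 (adjusted p = 0.006466, 0.0002393 and 0.0003202), and overlapped only at 55 weeks. Dhcr7, the reductase of the final step, was lower at 10 and 25 weeks with no overlap (-0.37 and -0.53) and did not pass at 55 weeks (-0.20), though limma, a fit of the 2 groups alone and leaving out villin-PPARD replicate 2 called it. Sc5d, a sterol desaturase, was higher at 25 weeks (0.40) and 55 weeks (0.385). Its 25-week call was lost in a fit of those 2 groups alone and without WT replicate 1 or 4 or villin-PPARD replicate 1 or 2. Lss, the lanosterol synthase, and Ebp, a sterol isomerase, were higher at 55 weeks only (0.34 and 0.24), with overlap, and the Ebp call was lost in 6 single-library omissions. Cyp51, the lanosterol demethylase, did not pass at any age (0.26 at 55 weeks).

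Stard4 (chromosome 18, 33199355 to 33213862, minus strand) encodes a protein that carries sterol between membranes and is an SREBP target. It was at 24.2, 17.6, 16.1, 23.2 and 18.9 CPM in WT and 13.8, 13.9, 15.6, 17.3 and 15.6 CPM in villin-PPARD at 10 weeks. Levels at 25 weeks were 17.2, 18, 19.2 and 16.7 CPM in WT and 13.1, 14.3, 18.2 and 15.7 CPM in villin-PPARD, and at 55 weeks 21.9, 18.2, 16.4, 15.3 and 17.7 CPM in WT and 27.5, 24.2, 23.6, 20.3 and 26.5 CPM in villin-PPARD. It was lower in villin-PPARD at 10 weeks and higher at 55 weeks, each with overlap of a few libraries. This gave a log2 difference of -0.39 (SE 0.12, adjusted p = 0.01026), -0.21 and 0.45 (SE 0.115, adjusted p = 0.001369) at the 3 ages. The 10-week call was lost in a fit of either library group alone.

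The 3 triglyceride genes split. Dgat2 was higher at 10 and 55 weeks, Gpam lower at all 3 ages and Dgat1 lower at 25 and 55 weeks. Dgat2 (chromosome 7, 99153658 to 99182719, minus strand) encodes the acyltransferase that makes triglyceride at the endoplasmic reticulum and lipid droplets, and per kilobase of exon it was the most abundant of the 34 genes in WT (88.6 ± 16.4 CPM per kilobase at 10 weeks). Its values at 10 weeks were 334, 219, 224, 277 and 309 CPM in WT and 445, 355, 385, 462 and 393 CPM in villin-PPARD. Libraries of 25-week mice were at 322, 230, 272 and 280 CPM in WT and 390, 341, 281 and 410 CPM in villin-PPARD, and at 55 weeks 358, 233, 314, 386 and 290 CPM in WT and 399, 508, 537, 411 and 464 CPM in villin-PPARD. The groups did not overlap at 10 and 55 weeks and overlapped at 25 weeks, with log2 differences of 0.58 (SE 0.14, adjusted p = 0.001695) at 10 weeks, 0.365 (SE 0.15, adjusted p = 0.05866) at 25 weeks, not past the threshold, and 0.55 (SE 0.14, adjusted p = 0.0009755) at 55 weeks. The 25-week difference passed with library size alone, limma or the replicate block, and without WT replicate 1 or villin-PPARD replicate 3.

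Dgat1 (chromosome 15, 76502015 to 76511953, minus strand) encodes the other, unrelated acyltransferase of the last step of triglyceride synthesis. It was at 113, 88.2, 94, 101 and 108 CPM in WT and 103, 101, 90.3, 94.5 and 99.8 CPM in villin-PPARD at 10 weeks. At 25 weeks it was at 117, 90.9, 119 and 105 CPM in WT and 68.6, 73.1, 63 and 64.5 CPM in villin-PPARD, and at 55 weeks at 110, 76.3, 122, 111 and 89.8 CPM in WT and 55.5, 64.1, 60.4, 51.7 and 56.9 CPM in villin-PPARD. It overlapped between genotypes at 10 weeks (log2 difference -0.046) and every villin-PPARD library was below every WT library at 25 and 55 weeks, with log2 differences of -0.685 (SE 0.115, adjusted p = 3.706e-05) and -0.82 (SE 0.10, adjusted p = 6.952e-08).

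Gpam (chromosome 19, 55067268 to 55127238, minus strand) encodes the mitochondrial enzyme that adds the first acyl chain to glycerol phosphate. At 10 weeks its values were 35.4, 34.7, 35.8, 27.3 and 28.2 CPM in WT and 25.8, 27.2, 24.9, 23.4 and 28.3 CPM in villin-PPARD. The 25-week libraries were at 29.8, 19.3, 24.2 and 26.4 CPM in WT and 18.1, 19.2, 21.9 and 13.3 CPM in villin-PPARD, and at 55 weeks 14.5, 13.3, 14.2, 20.1 and 15.6 CPM in WT and 8.72, 10.1, 9.24, 9.91 and 8.81 CPM in villin-PPARD. It was lower at all 3 ages, with no overlap only at 55 weeks, and it also declined with age in both genotypes. The log2 difference was -0.32 (SE 0.12, adjusted p = 0.04208), -0.46 (SE 0.14, adjusted p = 0.009549) and -0.74 (SE 0.13, adjusted p = 1.06e-05). The 10-week call was lost under several alternatives, among them the term for library group and the replicate block. The 25-week call was lost with library size alone and without WT replicate 1.

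**Figure D3:**
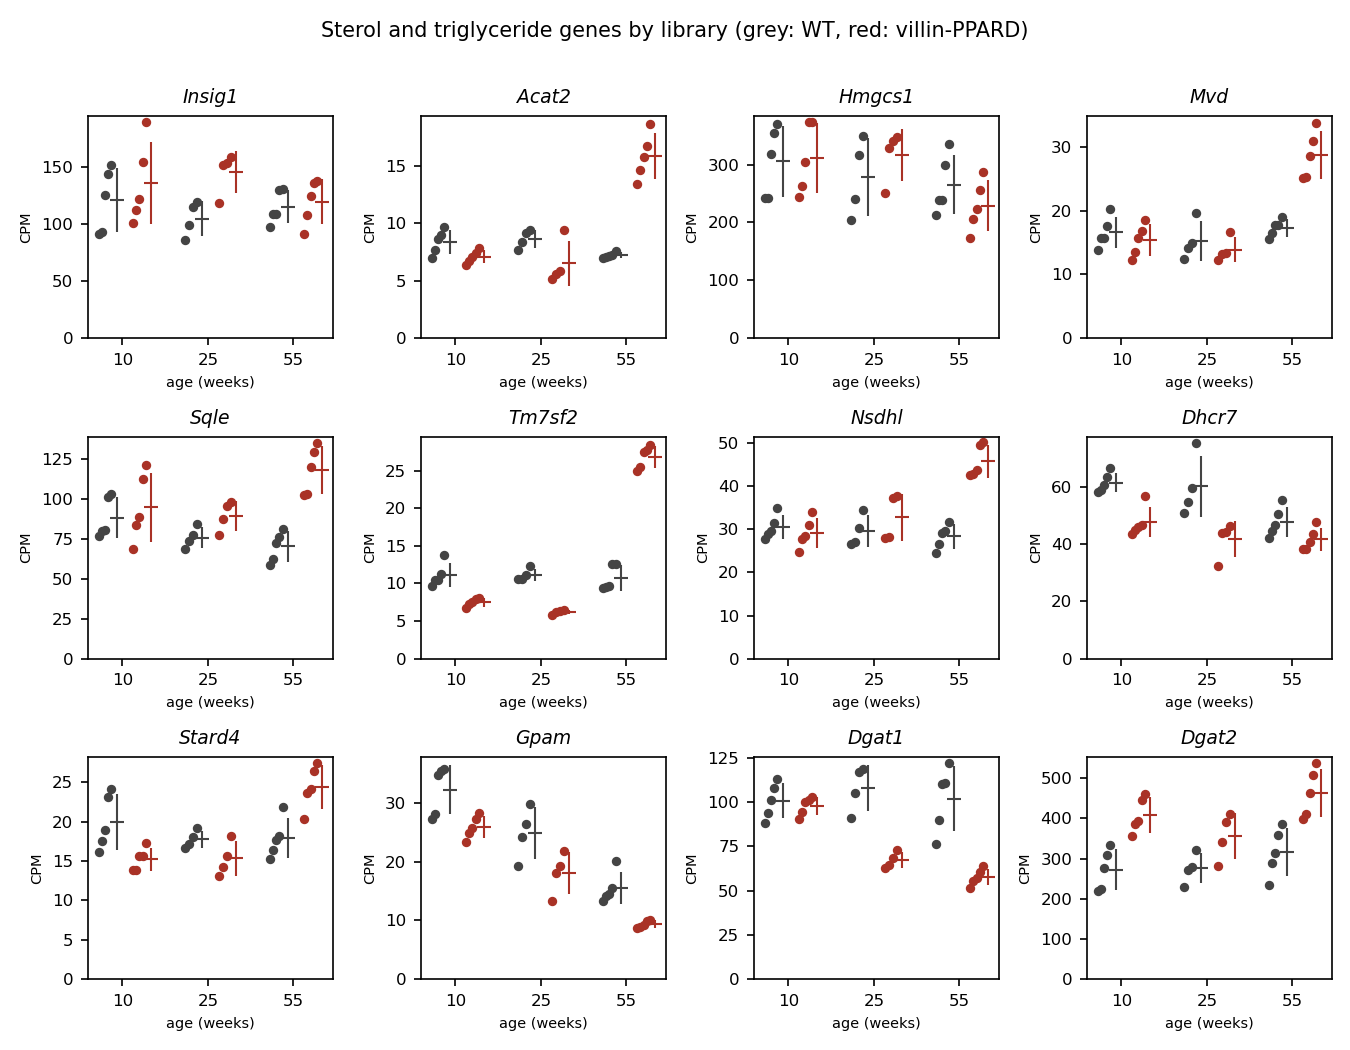
CPM (vertical axis, linear from 0) of Insig1, 7 cholesterol genes, Stard4 and the 3 triglyceride genes in each of the 28 libraries, by genotype and age, with the mean ± SD beside each group and points ordered by value. Tm7sf2 in villin-PPARD lies below WT at 10 and 25 weeks and at 24.9 to 28.4 CPM at 55 weeks, where WT lies at 9.41 to 12.6 CPM.

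Across the ages, 3 members were higher at all 3 (Acaca, Acly, Hsd17b7) and Gpam was lower at all 3, beside 8.54% of all genes higher and 7.92% lower at all 3. Scd2, Stard4 and Tm7sf2 were lower at 10 weeks and higher at 55 weeks, and Acat2 was lower at 25 weeks and higher at 55 weeks. Each of these earlier calls was lost under some alternative, that of Tm7sf2 only in a fit of the first library group alone. The share of all genes with such a reversal was not computed. A further 11 members were higher at 55 weeks only in the fit reported, where 31.7% of all genes were higher at that age. The share of all genes with this pattern over the ages was not computed. Under some alternative, Elovl5, Elovl6, Fads2, Lss, Nsdhl and Sqle were called higher at 25 weeks. Elovl5 was called lower at 10 weeks by limma, and Ebp lower at 10 or 25 weeks under some alternatives. The 6 genes Hmgcs1, Mvk, Idi1, Fdps, Fdft1 and Cyp51 passed at no age in the fit reported, and Hmgcs1 in none of the alternatives run either.

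The other 5 each passed under some alternative. Idi1 was called higher at 55 weeks with library size alone, limma, the term for library group, a fit of the 2 groups alone, and without WT replicate 1 or 2. Fdps was called lower at 25 weeks by DESeq2, with DESeq2 size factors, by limma, and without WT replicate 1 or villin-PPARD replicate 3 or 4. Cyp51 was called higher at 55 weeks with library size alone, limma, and without WT replicate 1. Fdps, Fdft1 and Mvk were called higher at 55 weeks with library size alone, where the Mvk difference changed sign to 0.32. Idi1 was called lower at 10 weeks without villin-PPARD replicate 4, and Mvk lower at 25 weeks without villin-PPARD replicate 3.

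Over time within genotype, each later age was compared with 10 weeks. The step from 25 to 55 weeks within a genotype was not tested, and in villin-PPARD all 25-week libraries lie in the first library group and all 55-week libraries in the second. In WT none of the 34 changed from 10 to 25 weeks by edgeR (0.0126% of all genes were called, and 4 of the 34 had an unadjusted p under 0.05), and none was called by DESeq2 or limma. From 10 to 55 weeks 2 changed in WT (12.7% of all genes), and both fell, Gpam (-1.05) and Dhcr7 (-0.36). In villin-PPARD 4 changed from 10 to 25 weeks (2.81% of all genes): Elovl5 rose (0.64) and Srebf1 (-0.51), Gpam (-0.51) and Dgat1 (-0.54) fell. That count was 0 within the first library group, which leaves fewer libraries, and 1 with the replicate block.

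From 10 to 55 weeks in villin-PPARD 23 of 34 changed (51.7% of all genes), 19 higher (background 27.2%) and 4 lower (background 24.5%). Fads1 rose by 3.86, Fads2 by 3.71, Elovl5 by 2.64 and Scd2 by 2.29 on the log2 scale. The 4 lower were Gpam (-1.47), Dgat1 (-0.76), Elovl1 (-0.44) and Hmgcs1 (-0.44). Within the second library group, which holds the 55-week libraries and 2 of each genotype at 10 weeks, 21 members were called.

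The genotype difference itself changed with age, by the interaction test in the same fit. From 10 to 25 weeks no member's difference changed by edgeR (0.00632% of all genes were called, and 5 of the 34 had an unadjusted p under 0.05), and 1 was called by DESeq2 and 1 by limma. From 10 to 55 weeks it changed for 20 members (36.4% of all genes), 19 upward (background 18.4%) and Dgat1 downward (background 18%). The largest were Fads1 at 4.14 (adjusted p = 1.164e-11), Fads2 at 3.96 (adjusted p = 8.957e-13), Elovl5 at 2.98 and Scd2 at 2.68. Tm7sf2 changed by 1.88, Acat2 by 1.37 and Dgat1 by -0.77. Within the second library group 12 members passed. From 25 to 55 weeks 16 members changed (28.9% of all genes), all upward (background 14.3% upward and 14.6% downward). The 25-week libraries lie in the first library group, apart from the replacement, and the 55-week libraries in the second. A change of the genotype difference with age and a change of it with library group therefore cannot be told apart for this step. Both interactions use the same 55-week libraries, and so are not independent. The interaction of Srebf1 was 0.49 from 10 to 55 weeks and 0.89 from 25 to 55 weeks.

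**Figure D4:**
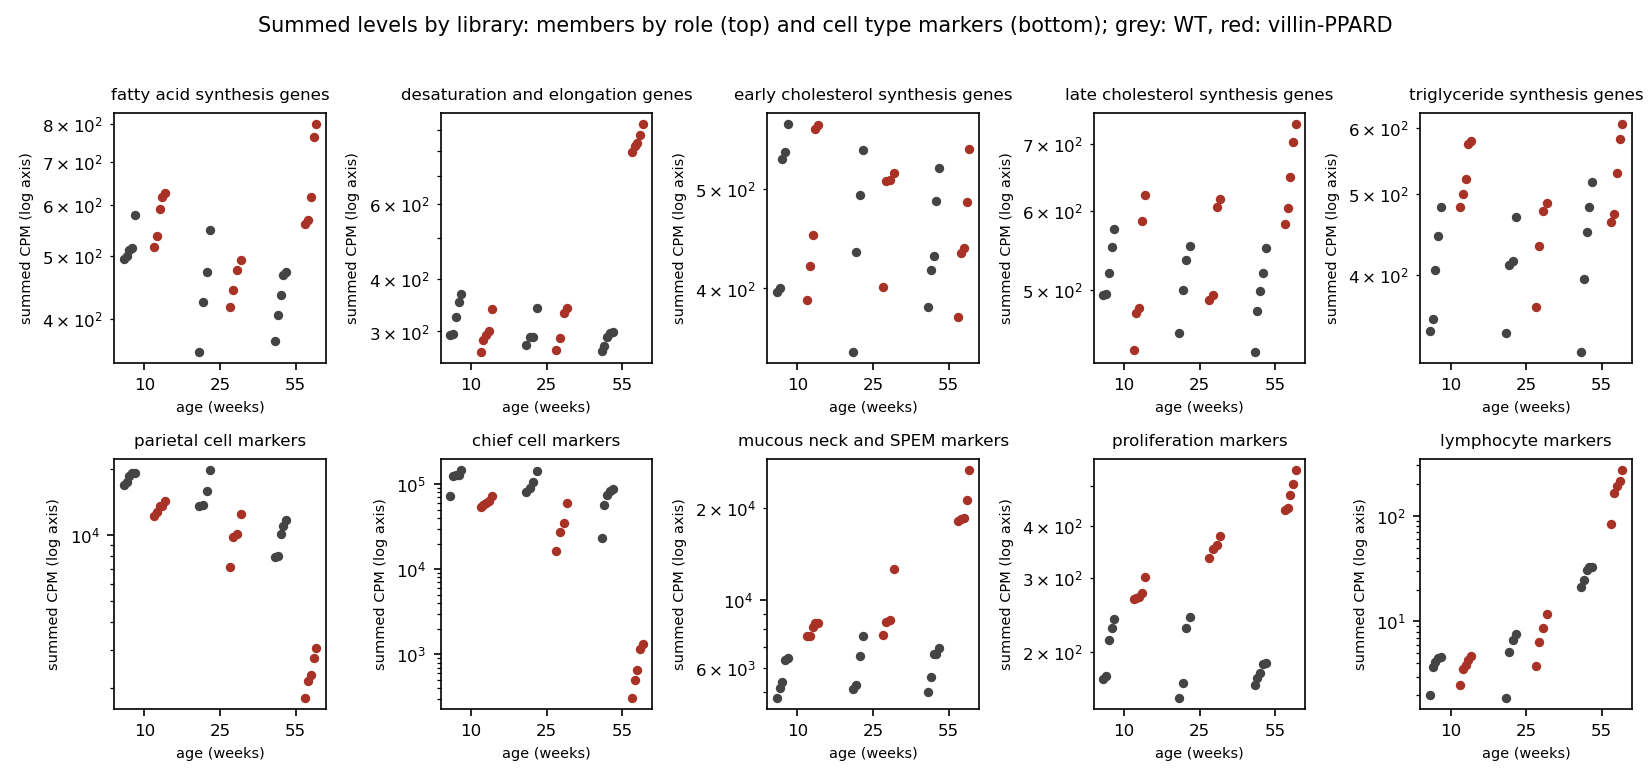
Summed CPM (vertical axis, log scale) of 5 role groups (top) and 5 lists of cell type or proliferation markers (bottom) in each library, by genotype and age. The desaturation and elongation genes at 55 weeks sum to 270.2 to 298.5 CPM in WT and 796.7 to 927 CPM in villin-PPARD, and chief cell markers to 23420 to 87270 and 310.2 to 1320 CPM.

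Levels per kilobase of exon allow only a rough comparison between genes. The length is the union of all annotated exons, and counts of genes with shared stretches, such as Fdps, Acaca and Hmgcs1, are uncertain. On this scale the highest members in WT at 10 weeks were Dgat2 at 88.6, Hmgcs1 at 66.6, Elovl1 at 54.7 and Srebf2 at 53.6 CPM per kilobase. The lowest were Scd1 at 0.462 and Fdps at 1.13 CPM per kilobase. In villin-PPARD at 55 weeks Scd2 was the second highest, at 76.3 ± 11.1 CPM per kilobase, after Dgat2 at 151.0 ± 19.4, and Gpam was the lowest, at 1.4.

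Other genes of the same pathways did not move as one. Their counts stand beside 17.9%, 21% and 31.7% of all genes called higher and 16.2%, 18.6% and 27.6% called lower at 10, 25 and 55 weeks, and several lie near those shares. Of 10 tested genes of sterol synthesis and uptake outside the 34, 3 were higher at 10 weeks, 4 at 25 weeks and 5 at 55 weeks, and 2 were lower at each age. Lbr, a lamin-binding protein that is also a sterol reductase of the kind Tm7sf2 encodes, was higher at all 3 ages, by 0.90 at 55 weeks, where it stood at 28.8 ± 5.03 CPM in WT and 53.8 ± 1.88 CPM in villin-PPARD (mean ± SD, n = 5 each). Tmem97, a sterol-responsive membrane protein, was lower at each age (-0.57, -0.70 and -0.99), as was Acat1, the mitochondrial thiolase (-0.82 at 55 weeks).

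Of 10 genes of SREBP processing and sterol sensing, 1 was higher at 10 weeks, 3 at 25 weeks and 6 at 55 weeks (against 31.7% of all genes), and 2 were lower at 55 weeks (against 27.6%). Rnf145, a ubiquitin ligase of the endoplasmic reticulum, was 3.61-fold higher at 55 weeks (11 ± 1.49 CPM in WT and 39.7 ± 3.95 CPM in villin-PPARD). Erlin1, a membrane protein of the endoplasmic reticulum that takes part in protein degradation there, was higher at 10 and 25 weeks (0.25 and 0.54) and lower at 55 weeks (-0.39). Scap, the escort of SREBPs, was lower at 55 weeks (-0.275).

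Of 11 genes of LXR signalling and cholesterol efflux, 1, 1 and 3 were higher and 2, 3 and 2 were lower at 10, 25 and 55 weeks. Nceh1, a cholesteryl ester hydrolase, was 3.14-fold lower at 55 weeks, and Soat1, which esterifies cholesterol, 2.01-fold lower. Npc1, which exports cholesterol from lysosomes, was lower at 10 and 25 weeks (-0.47 and -0.57) and did not pass at 55 weeks (-0.059). Lpcat3, a phospholipid acyltransferase, and Lipa, the lysosomal lipase, were higher at 55 weeks (0.41 and 0.75), and the exporter gene Abcg1 was higher at 10 and 25 weeks (0.83 and 0.64).

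Of 19 tested genes of fatty acid synthesis outside the 34, 3, 4 and 4 were higher and 5, 5 and 8 lower at the 3 ages. Fads6, a desaturase relative, was 15.5-fold lower at 55 weeks (32.5 ± 6.92 CPM in WT and 2.1 ± 0.681 CPM in villin-PPARD), and lower at 10 and 25 weeks as well. Acacb, the mitochondrial acetyl-CoA carboxylase, was 7.42-fold lower at 55 weeks, in contrast to the higher Acaca, at 172 ± 27.8 CPM in WT and 23.3 ± 7.52 CPM in villin-PPARD. Fa2h, which hydroxylates fatty acids of sphingolipids, was lower by 2.34-fold. Higher were Degs1, a sphingolipid desaturase (0.67 at 55 weeks), Hacd1, a dehydratase of elongation (0.71 at 55 weeks), and Hsd17b12, its ketoreductase (0.53 and 0.76 at 10 and 25 weeks, not past the threshold at 55 weeks).

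Of 26 tested genes of glycerolipids and lipid droplets, 10, 11 and 7 were higher and 8, 7 and 12 lower at the 3 ages, and their median log2 difference was -0.27 at 55 weeks. Of the monoacylglycerol acyltransferases, Mogat2 was 6.32-fold higher at 55 weeks (9.47 ± 0.556 CPM in WT and 59.8 ± 5.72 CPM in villin-PPARD) and Mogat1 6.98-fold lower (406 ± 74 CPM in WT and 58.2 ± 23.8 CPM in villin-PPARD). Plin2, which coats lipid droplets, was higher at 25 and 55 weeks (1.57 and 1.97). Agpat4, an acyltransferase of glycerolipid synthesis, was higher at 10 and 25 weeks (1.02 and 0.81) and lower at 55 weeks (-0.91). The lipase genes Mgll, at log2 differences of -0.605, -1.23 and -1.94, and Lipe, at -0.55, -0.785 and -1.91, were lower throughout.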

How the data were processed

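RNA from gastric corpus epithelial cells of 28 mice was made into unstranded poly-A libraries and sequenced as paired 75-base reads, per the labels' protocols. The deposited values are raw counts per gene, one column per library, made by the authors with TopHat2 2.0.14 and HTSeq 0.6.1 on mm10, per the submitters' processing notes, which also name DESeq2. Which gene annotation was counted, and with which strand option, is not stated in these sources, so reads of overlapping genes cannot be told apart by strand.

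Counts were filtered with filterByExpr, scaled with TMM factors and fitted in 1 model of 6 groups (genotype by age) with edgeR 4.0.16, glmQLFit with robust estimation, in R 4.3.3. Contrasts were genotype at each age, age within genotype, and the genotype-by-age interaction. P-values were adjusted over all 15812 genes tested (Benjamini-Hochberg, threshold 0.05). SEs were derived from each log2 difference and its F statistic (difference over root F). The script was tested on simulated data. CPM uses TMM-scaled library sizes, and per-kilobase levels use the union of GENCODE exons.

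The 34 genes and the pathway and marker lists were chosen with earlier results of these data known. Values in every library are given for Srebf1, Srebf2, Insig1, Fasn, Scd1, Scd2, Hmgcs1, Sqle, Dgat2 and the 2 members of each role group with the lowest adjusted p over the genotype contrasts, and Elovl5 was added after its values were seen. Of each pathway list, the 3 genes of lowest adjusted p in either direction are named, where there were that many, and some are not reported here. Alternatives were DESeq2 1.42.0 (size factors and Wald test), limma 3.58.1 voom, library size alone, no filter, a replicate block, a term for library group, fits of fewer groups or of 1 library group, and leaving out each library. Total counts, which set the precision, ranged from 10982888 to 30891108. Promoter windows came from RefSeq, and members without a window were not analysed here for motifs.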

Additional observations from a re-analysis of the deposited data

Results flagged for a closer look

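Of 204 groups (34 genes in 6 groups of 4 or 5 libraries), 11 held a library whose gap to its nearest neighbour was large for the group's range by Dixon's test at the 95% level, which chance alone gives in about 1 group in 20. These were Acat2 in villin-PPARD 25 weeks replicate 3 (9.43 CPM), Acly in WT 25 weeks replicate 1 (95.2 CPM), Cyp51 in WT 10 weeks replicate 4 (148 CPM), Dhcr7 in villin-PPARD 10 weeks replicate 5 (56.8 CPM), Elovl1 in villin-PPARD 10 weeks replicate 1 (162 CPM), Elovl5 in WT 25 weeks replicate 1 (6.67 CPM), Elovl6 in WT 10 weeks replicate 5 (30.3 CPM), Fads2 in WT 10 weeks replicate 1 (3.59 CPM), Fasn in WT 10 weeks replicate 5 (445 CPM), Idi1 in villin-PPARD 55 weeks replicate 2 (65.3 CPM) and Pmvk in villin-PPARD 25 weeks replicate 2 (10.0 CPM). None of the 55-week values of Fads1, Fads2, Elovl5, Scd1 or Scd2 was among them.

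The genotype difference changed with age for the following genes by the interaction test of edgeR (adjusted p under 0.05). From 10 to 55 weeks the log2 change of the difference was Srebf1 0.49, Acaca 0.81, Fasn 0.52, Scd1 1.64, Scd2 2.68, Elovl5 2.98, Elovl6 0.545, Fads1 4.14, Fads2 3.96, Acat2 1.37, Mvd 0.845, Idi1 0.66, Fdps 0.57, Sqle 0.65, Lss 0.42, Tm7sf2 1.88, Nsdhl 0.75, Ebp 0.42, Stard4 0.84 and Dgat1 -0.77. From 25 to 55 weeks it was Srebf1 0.89, Acaca 0.745, Fasn 0.72, Scd1 1.65, Scd2 2.23, Elovl5 2.23, Fads1 3.59, Fads2 3.42, Acat2 1.53, Mvd 0.87, Fdps 0.74, Sqle 0.51, Tm7sf2 2.17, Nsdhl 0.54, Ebp 0.47 and Stard4 0.66. The 2 sets of changes share the 55-week libraries, and that from 25 to 55 weeks also lies between library groups. All 16 genes called from 25 to 55 weeks were also called from 10 to 55 weeks.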

How the results depend on the processing

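At 55 weeks the 23 members called higher and 3 called lower stayed within 1.5 times of those counts under every alternative run, and 24 of the 26 calls were kept in all of them, the exceptions being Ebp and Elovl1. Library-size scaling gave 12 higher and 3 lower at 25 weeks. At 10 weeks 3 were higher and 1 lower within the first library group, 1 and 1 within the second, and 3 were lower without a filter, and leaving out 1 library gave 3 to 5 lower. At 25 weeks limma gave 10 higher, a fit of the 2 groups alone 3, and leaving out 1 library gave 3 to 7 higher and 4 to 8 lower. The villin-PPARD change from 10 to 25 weeks, 4 members, was 2 with library size alone, 9 with limma, 2 with a term for library group, 0 within the first library group, 1 with the replicate block and 1 to 6 without 1 library. The WT change from 10 to 55 weeks, 2 members, was 4 by DESeq2, 5 with limma, 1 with library size alone, 1 within the second library group and 1 to 3 without 1 library. The change of the genotype difference from 10 to 25 weeks, 0 members, was 1 by DESeq2 and 1 with limma, and that from 10 to 55 weeks, 20 members, was 12 within the second library group, where fewer libraries were fitted. With library size alone the log2 differences that changed sign were Cyp51 at 10 weeks (0.011), Fasn at 25 weeks (0.044), Elovl1 at 25 weeks (0.062), Mvd at 25 weeks (0.029), Fdft1 at 25 weeks (0.047), Elovl1 at 55 weeks (0.089), Hmgcs1 at 55 weeks (0.18), Mvk at 55 weeks (0.32) and Dhcr7 at 55 weeks (0.20). With limma they were Elovl1 at 10 weeks (-0.013), Fdft1 at 10 weeks (0.082), Cyp51 at 10 weeks (0.034), Elovl1 at 25 weeks (0.014) and Fdft1 at 25 weeks (0.011). Without a filter the only one was Cyp51 at 10 weeks (0.011). With only the 2 groups compared they were Elovl1 at 10 weeks (-0.00021), Srebf1 at 25 weeks (-0.013) and Scd2 at 25 weeks (-0.0019). Within the first library group they were Elovl6 at 10 weeks (-0.068), Hmgcs1 at 10 weeks (-0.015) and Dgat1 at 10 weeks (0.027). Within the second library group they were Scd2 at 10 weeks (0.023), Elovl5 at 10 weeks (0.046), Cyp51 at 10 weeks (0.20) and Nsdhl at 10 weeks (0.021). Leaving out 1 library turned the sign of differences that spanned 0: Insig1 at 10 weeks (-0.0129 to 0.259), Elovl1 at 10 weeks (-0.0355 to 0.0417), Elovl6 at 10 weeks (-0.0444 to 0.109), Hmgcs1 at 10 weeks (-0.0734 to 0.107), Fdft1 at 10 weeks (-0.201 to 0.0365), Sqle at 10 weeks (-0.00399 to 0.199), Cyp51 at 10 weeks (-0.131 to 0.0353), Srebf1 at 25 weeks (-0.104 to 0.189), Fasn at 25 weeks (-0.23 to 0.00953), Scd2 at 25 weeks (-0.0497 to 0.106), Elovl1 at 25 weeks (-0.15 to 0.0368), Mvd at 25 weeks (-0.258 to 0.0162), Idi1 at 25 weeks (-0.0359 to 0.276), Fdft1 at 25 weeks (-0.205 to 0.00608) and Insig1 at 55 weeks (-0.0141 to 0.133). Of these differences, only Elovl1 at 55 weeks and Scd2 at 10 weeks were past the threshold as reported, and the cause was not tested. Replicate numbers did not pair the mice (same-number correlations of -0.137 to 0.229 at 10 weeks, -0.0982 to 0.00185 at 25 weeks and -0.422 to -0.0652 at 55 weeks, with 3 of 28 libraries correlating best with their own number). With the replicate block, 10 members were called at 10 weeks, where Gpam was lost, 12 at 25 weeks and 26 at 55 weeks. Counting depth limits the least abundant members, Scd1, Fads2 and Fdps, more than the others.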
